A study of Homo sapiens with 59 samples.

Results

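The 10 genes described here are 3 Notch ligands (DLL1, DLL3 and JAG1), the receptor NOTCH1, and 6 transcription factor genes of the HES and HEY families (HES1, HES4, HES5, HES6, HEY1 and HEY2). They were taken by gene symbol from a table of 19084 symbols, a choice made with earlier results of these data known, and all 10 passed the filter on low values that left 15305 genes for testing. RNA had been sequenced in 59 libraries of neural stem cells, all derived from the established human embryonic stem cell line WA09 (H9). All libraries came from cells that had received FGF8b at 200 ng per mL, then a neuromesodermal medium with CHIR99021, which inhibits the kinase GSK3 and so turns on canonical WNT signalling, and last retinoic acid for 4 days. The groups differ in how long CHIR99021 was given: 2 to 24 h in steps of 2 h and 24 to 72 h in steps of 6 h, which makes 20 time points of 3 libraries each (labelled A1, A2 and B1), except 48 h with 2. A longer exposure was also a longer culture, and no arm without CHIR99021 was analysed here. The RNA was taken after the retinoic acid step, so no value shows a gene during CHIR99021 exposure itself.

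Notch signalling passes between touching cells. A ligand of the Delta or Jagged family on one cell binds a Notch receptor on its neighbour, the receptor is cut by ADAM proteases and gamma-secretase, and its intracellular part enters the nucleus, where it joins the DNA-binding protein RBPJ and switches on target genes such as those of the HES and HEY families. The HES and HEY proteins are transcriptional repressors. In the embryonic nervous system HES1 and HES5 hold cells as progenitors by repressing proneural genes, and cells that escape this repression make proneural factors, raise Delta ligands and become neurons.

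The recognition sequence of RBPJ, GTGGGAA, was looked for on both strands (its reverse complement is TTCCCAC, with which it does not overlap) because it is the point where the receptor's signal meets its target genes. The windows were RefSeq promoters of the GRCh38.p14 build, running from 250 bases before to 50 bases after each annotated start, for 7 of the 10 genes: JAG1, NOTCH1, HES1, HES4, HES5, HES6 and HEY2. The motif was in 4 of these 7 windows, against 6.25% of all 35116 promoters of the same length. HES5 and HEY2 held 2 matches each, which was so for 0.248% of all promoters, and HES1 and HES4 held 1 each. The stretches are shown 5′ to 3′ on the strand of the gene with the motif in capitals. They lie at chr3:194136046-194136086 (plus strand) for HES1, chr1:1000151-1000191 (minus strand) for HES4, chr1:2530321-2530361 and chr1:2530464-2530504 (minus strand) for HES5, and chr6:125749402-125749442 (plus strand) for HEY2.
HES1, match beginning 85 bases before the start: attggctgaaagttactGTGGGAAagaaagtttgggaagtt
HES4, match beginning 77 bases before the start: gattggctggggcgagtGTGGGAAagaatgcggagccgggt
HES5, match beginning 81 bases before the start: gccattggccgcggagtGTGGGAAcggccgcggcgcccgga
HES5, match beginning 224 bases before the start: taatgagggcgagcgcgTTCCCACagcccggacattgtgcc
HEY2, match beginning 213 bases before the start: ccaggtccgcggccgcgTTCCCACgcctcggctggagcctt
The second HEY2 match began 4 bases before the start. These matches describe the letters of the reference genome only, and binding was not measured.

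The values are TPM, which are scaled for gene length and can therefore be set side by side between genes, but the reads behind a library cannot be counted from them. Fewer than 10000 genes reached 1 TPM in B1 of 4 h, B1 of 42 h and A2 of 72 h, against at least 11004 in each other library. In the 4 h B1 library 7 of the 10 genes (DLL3 and all 6 HES and HEY genes) were listed at 0, and in the 72 h A2 library DLL1, DLL3, HES5 and HEY2 were. Results are therefore also given without these 3 libraries where that alters a call. The labels do not say whether A1, A2 and B1 were separate cultures, so p-values reflect how far these libraries scatter, and that scatter may be technical. In bulk RNA, fewer cells that express a gene and less of its RNA in each cell cannot be told apart. The neural stem cell label was set beside SOX1, SOX2 and PAX6, transcription factors of the early neural plate and tube and part of a list of 10 progenitor markers. They averaged 19.1 ± 10.1, 141 ± 55.9 and 142 ± 26.1 TPM in the 12 libraries of 54 to 72 h, against 1.3 ± 1.46, 40.1 ± 22.7 and 195 ± 26.2 TPM (SD) in the 12 of 2 to 8 h. In the libraries of 2 to 8 h, 8 epithelium markers summed to 1405 to 3801 TPM. The label was thus not established for every library.

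Over all 59 libraries the order of the levels was led by JAG1 at 177 ± 26.5 TPM. DLL1 (42.7 ± 19 TPM), HES1 (31.5 ± 20.3), NOTCH1 (29.8 ± 7.83) and HES5 (28.6 ± 21.0) came next, and HES4 (18.0 ± 14.1), HEY1 (13.5 ± 7.58), HES6 (12.9 ± 14.1) and DLL3 (12.0 ± 9.34) followed. HEY2 was last at 0.522 ± 1.70 TPM. Apart from JAG1 above DLL1 and HEY2 below DLL3, the mean levels of neighbours in this order differed by less than 1 SD over libraries.

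A change over the 20 time points was tested for each gene with limma's moderated F-test on a smooth curve of hours, adjusted by the Benjamini-Hochberg method over all 15305 genes. At an adjusted p under 0.05, 8 of the 10 genes changed, against 36.8% of all genes tested. HES6 (adjusted p = 1e-07), DLL3 (4e-07) and HES5 (4.4e-07) had the smallest values. HES1 (0.00077), HEY2 (0.00078), HES4 (0.00133), NOTCH1 (0.0198) and JAG1 (0.0242) also passed, and DLL1 (0.150) and HEY1 (0.288) did not. HEY2 passed the filter on low values only through exposures shorter than 30 h, so its call adds nothing to its values given below. Without the 3 libraries under 10000 genes HEY1 passed as well (adjusted p = 0.0149). The calls of NOTCH1 and JAG1 did not hold when the A1 or the B1 libraries were left out, with adjusted p-values of 0.0611 and 0.237 for NOTCH1 and of 0.0846 and 0.427 for JAG1. NOTCH1 was also lost without the A2 libraries (0.127), HEY2 without A1 (0.166) and HES4 without B1 (0.0961).

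**Figure D1:**
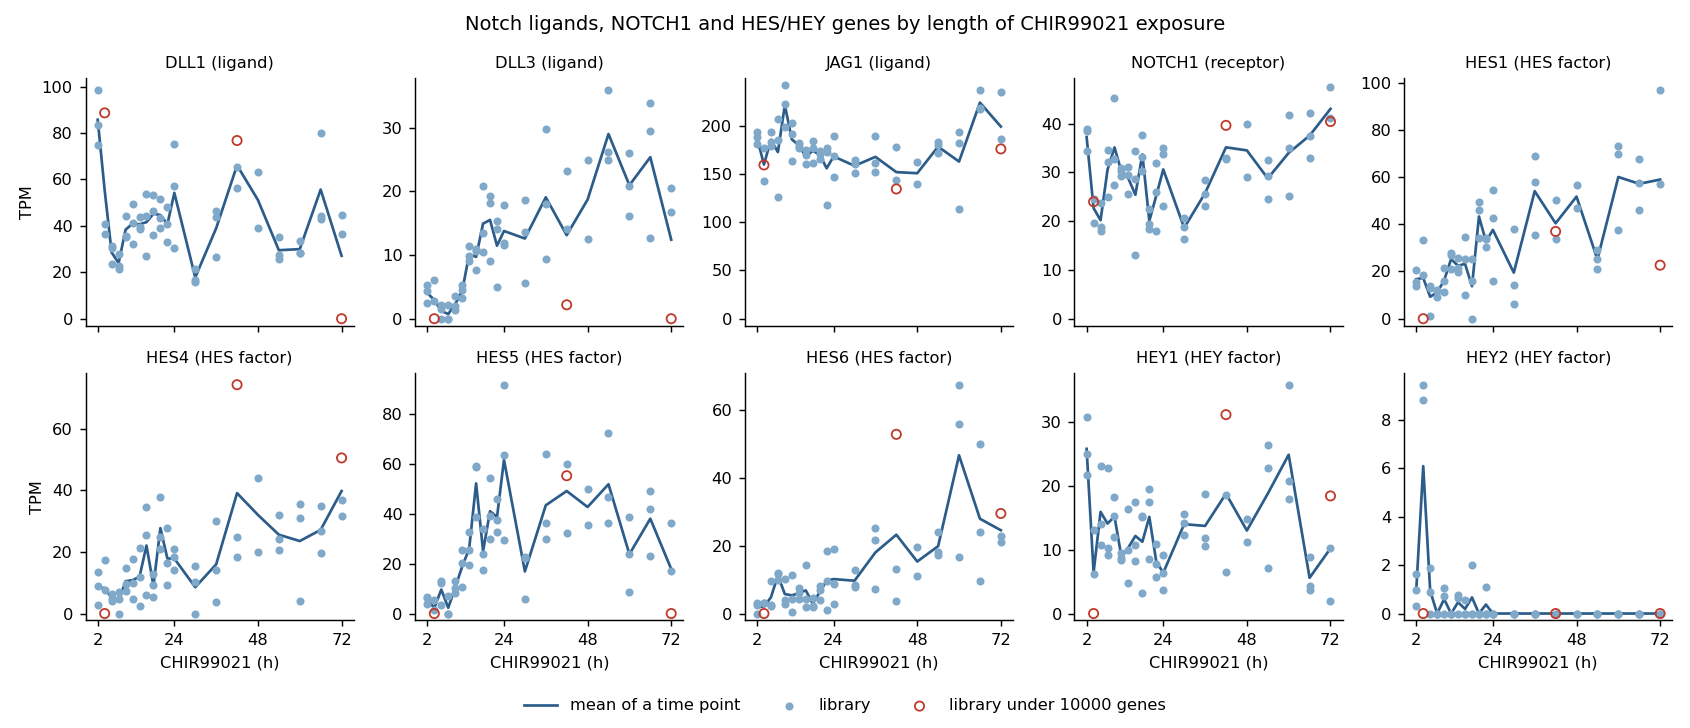
TPM (y axis, linear, a scale of its own per panel) of the 10 genes in all 59 libraries against hours of CHIR99021 (x axis); points are libraries, red rings the 3 libraries under 10000 genes, and the line joins the means of the time points. DLL3, HES1, HES4, HES5 and HES6 are low at 2 to 8 h and higher at 54 to 72 h, JAG1 stays between 113 and 243 TPM, and HEY2 is at 0 in every library from 30 h on.

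The longest exposures (54, 60, 66 and 72 h) were set against the shortest (2, 4, 6 and 8 h) in a limma fit of time-point means, with 12 libraries in each window and differences in log2(TPM + 1), a scale that makes changes of weakly expressed genes look smaller. DLL3, NOTCH1, HES1, HES4, HES5 and HES6 rose and HEY2 fell, while DLL1, JAG1 and HEY1 did not pass the threshold. That is 6 of 10 genes higher and 1 lower, against 14.3% and 15.8% of all genes tested. The 1 lower, HEY2, passed the filter on low values only through exposures shorter than 30 h. The median difference of the 10 genes was 1.23, against −0.04 over all genes tested.

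Among the ligands, DLL3, a divergent Delta protein that is found inside the cell rather than at its surface and that in mouse inhibits Notch signalling in the cell that makes it, had the largest log2 difference of the 10. In TPM it had a lowest value of 0, a median of 22.9 and a highest value of 35.9 at 54 to 72 h, against 0, 2.16 and 6.00 at 2 to 8 h. The 72 h A2 library was the exception: the other 11 of the 12 late libraries were above every early one. The log2 difference was 2.84 ± 0.370 (SE, limma adjusted p = 3.1e-08). Window by window from the shortest to the longest exposure, DLL3 averaged 2.23 ± 2.11, 6.61 ± 3.69, 13.9 ± 4.65, 15.6 ± 8.32 and 21.9 ± 9.86 TPM (SD; windows of 2 to 8, 10 to 16, 18 to 24, 30 to 48 and 54 to 72 h; n = 12, but 11 at 30 to 48 h). Its highest time-point mean was 29.0 ± 6.03 TPM at 54 h (24.90, 35.91 and 26.15 TPM in A1, A2 and B1).

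DLL1, the Delta ligand that activates Notch in neighbouring cells, had its highest mean at the shortest exposure. The 3 libraries of 2 h had 74.94, 98.63 and 83.69 TPM. At 4 h A1 and A2 had 40.86 and 36.42 TPM, and 88.72 TPM came from B1, one of the 3 libraries with few genes, and at 6 h the values were 31.44, 30.65 and 23.58 TPM. The 3 libraries of 2 h were thus above all others of 2 to 8 h but 4 h B1. At 54 to 72 h the lowest, median and highest values were 0, 34.4 and 79.9 TPM, against 21.4, 33.9 and 98.6 TPM at 2 to 8 h, so the windows overlapped almost throughout. The log2 difference between the windows was −0.61 (95% interval −1.22 to 0.01, limma adjusted p = 0.138), or −0.06 (adjusted p = 0.781) without the 3 libraries with few genes. The time points at the ends of the course differed by −2.85 (72 h minus 2 h, adjusted p = 0.000708), where the 72 h libraries had 36.68, 0 and 44.68 TPM and the 0 is that of A2. Without the 3 libraries with few genes this difference was −1.06 (adjusted p = 0.00948).

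JAG1, a Jagged-type ligand, was the most abundant of the 10 genes and varied least, its highest time-point mean being 1.49 times its lowest. Its values ran from 113 over a median of 185 to 237 TPM at 54 to 72 h, against 126, 182 and 207 TPM at 2 to 8 h. The windows overlapped, with a log2 difference of 0.10 (95% interval −0.06 to 0.27, limma adjusted p = 0.367). The highest mean was 224 ± 11.4 TPM at 66 h (216.97, 217.91 and 237.09 TPM) and the lowest 151 ± 16.0 TPM at 48 h (139.43 and 162.07 TPM, n = 2).

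NOTCH1, the receptor, rose by a small amount. It had 24.5, 36.2 and 47.5 TPM as lowest, median and highest values at 54 to 72 h, against 18.0, 24.7 and 38.8 TPM at 2 to 8 h. The ranges overlapped, and 5 of 12 late libraries were above every early one. The log2 difference was 0.38 ± 0.124 (SE, limma adjusted p = 0.0152). This call was lost without the A2 libraries (adjusted p = 0.149), without the B1 libraries (0.183) and when 6, 30 and 54 h were left out (0.0817).

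The 4 HES genes rose from the shortest to the longest exposures, and whether their courses differed was not tested. HES1, the Notch target that also oscillates in mouse neural progenitors, had 21.2, 51.7 and 97.0 TPM as lowest, median and highest values at 54 to 72 h, against 0, 13.4 and 33.2 TPM at 2 to 8 h. The ranges overlapped, with 8 of 12 late libraries above every early one. The log2 difference was 2.08 ± 0.416 (SE, limma adjusted p = 9.4e-05). From the shortest to the longest window HES1 averaged 13.6 ± 8.67, 21.8 ± 6.97, 31.9 ± 15.7, 40.5 ± 18.6 and 50.3 ± 24.0 TPM, higher in each window than in the one before, although no single step passed the test.

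HES4, a HES family repressor related to HES1, had 4.09, 31.4 and 50.5 TPM as lowest, median and highest values at 54 to 72 h, against 0, 5.50 and 17.2 TPM at 2 to 8 h. All late libraries but 60 h A2, at 4.09 TPM, were above every early one. From the shortest to the longest window HES4 averaged 6.37 ± 5.07, 13.8 ± 9.50, 18.1 ± 9.07, 23.1 ± 20.9 and 29.0 ± 11.4 TPM. As with HES1, each window mean was higher than the one before, and no single step passed the test. The log2 difference was 2.29 ± 0.445 (SE, limma adjusted p = 6.4e-05). Its highest value of any library, 74.23 TPM, was in 42 h B1, one of the 3 libraries with few genes, where A1 and A2 had 18.28 and 24.67 TPM.

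HES5, the Notch target most closely tied to neural progenitors, rose within the first step, where HES1, HES4 and HES6 did not pass. Whether the genes differed in timing was not tested. At 10 to 16 h it had 8.07, 22.9 and 59.1 TPM as lowest, median and highest values, against 0, 4.67 and 12.9 TPM at 2 to 8 h, with 9 of 12 libraries above every library of the earlier window. The log2 difference was 2.48 ± 0.383 (SE, limma adjusted p = 1e-05). The rise was laid out over the single time points: 8.07, 13 and 10.26 TPM at 10 h, 25.47, 20.40 and 10.66 TPM at 12 h, 32.59, 25.60 and 19.61 TPM at 14 h, and 38.75, 59.12 and 58.68 TPM at 16 h. HES5 then averaged 41.6 ± 20.3, 37.6 ± 17.9 and 32.9 ± 19.7 TPM in the 3 windows from 18 h on, and none of those steps passed the test. At 54 to 72 h, values ran from 0 (the 72 h A2 library) over 36.3 to 72.5 TPM, and 10 of 12 libraries were above all of those at 2 to 8 h. The log2 difference between these windows was 2.55 ± 0.383 (SE, limma adjusted p = 7e-07).

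HES6, which in mouse promotes neuronal differentiation and counteracts HES1, had its highest window means late. It averaged 4.98 ± 4.48, 5.98 ± 4.09 and 7.28 ± 6.06 TPM in the first 3 windows, then 16.7 ± 13.7 TPM (30 to 48 h) and 29.8 ± 18.0 TPM (54 to 72 h). Its lowest, median and highest values were 9.60, 23.5 and 67.5 TPM at 54 to 72 h, against 0, 3.11 and 12.0 TPM at 2 to 8 h. Every late library but 66 h A2, at 9.60 TPM, was above every early one. The log2 difference was 2.61 ± 0.402 (SE, limma adjusted p = 1.2e-06). Its spread was wide where it was highest: the 60 h libraries had 16.68, 67.51 and 55.83 TPM.

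HEY1, a Notch target known from blood vessels and the heart as well as the nervous system, had 1.94, 14.2 and 35.9 TPM as lowest, median and highest values at 54 to 72 h, against 0, 13.6 and 30.9 TPM at 2 to 8 h. The windows overlapped over nearly their whole range, with a log2 difference of −0.07 (95% interval −0.73 to 0.59, limma adjusted p = 0.903). Within the late window its libraries were far apart, with 4.25, 8.91 and 3.66 TPM at 66 h and 20.81, 35.92 and 18.05 TPM at 60 h. The highest mean of any time point was 25.9 ± 4.66 TPM at 2 h. For 72 h against 2 h the log2 difference was −1.62 (adjusted p = 0.0759), or −2.21 (adjusted p = 0.00555) without the 3 libraries with few genes.

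HEY2, its relative known for its part in heart and artery development, was the 1 gene of the 10 called lower. It was above 0 in 14 of 59 libraries and reached 1 TPM in 7, all of them at exposures shorter than 30 h. The filter on low values thus admitted HEY2 only through the exposures where it is high. Its call as lower adds nothing to the values that follow. The highest values were 9.44 and 8.80 TPM in 4 h A1 and A2, beside a 0 in 4 h B1, the library in which all 6 HES and HEY genes were listed at 0. The next highest were 1.99 TPM at 18 h and 1.89 TPM at 6 h. All 12 libraries of 54 to 72 h were listed at 0, against a range of 0 to 9.44 TPM at 2 to 8 h with 5 of 12 at 0 (limma adjusted p = 0.00085), and no fold is given against a group at 0. The call was lost without the A1 libraries (adjusted p = 0.118).

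The 4 steps between neighbouring windows were tested in the same fit, and with all 59 libraries only HES5 and DLL3 were called in any step. For NOTCH1, HES1, HES4, HES6 and HEY2 the steps therefore do not show where along the course the differences lay. For 10 to 16 h against 2 to 8 h, HES5 and DLL3 rose, which is 2 of 10 genes, against 3.8% of all genes tested called higher and 3.67% called lower. DLL3 had 1.32, 6.45 and 11.3 TPM as lowest, median and highest values at 10 to 16 h, with a log2 difference of 1.38 ± 0.370 (SE, limma adjusted p = 0.0128). That call was lost when the A1, A2 or B1 libraries were left out in turn (adjusted p = 0.087, 0.0577 and 0.176) and when 6, 30 and 54 h were left out (0.0646). HES1 (1.00, adjusted p = 0.156) and HES4 (1.15, adjusted p = 0.117) did not pass. HEY2 was called lower in this step without the 3 libraries with few genes (adjusted p = 0.000153, against 0.0803 with them). Since HEY2 passed the filter on low values only through exposures shorter than 30 h, that call adds nothing to its values.

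In the later steps limma called none of the 10 genes at an adjusted p under 0.05. For 18 to 24 h against 10 to 16 h, 2 of 10 had an unadjusted p under 0.05, DLL3 and JAG1, against 17.3% of all genes at that unadjusted threshold. At the adjusted threshold 3.6% of all genes were called higher and 2.74% lower. DLL3 had a log2 difference of 1.09 (adjusted p = 0.0710), and it was called without the 3 libraries with few genes (adjusted p = 0.00146). For 30 to 48 h against 18 to 24 h, 1 of 10 had an unadjusted p under 0.05, namely HES6 with a log2 difference of 1.14 (adjusted p = 0.187), against 11.9% of all genes, while 0.451% of all genes were called higher and 1.11% lower after adjustment. For 54 to 72 h against 30 to 48 h it was 3 of 10, against 18.1% of all genes, while 2.86% were called higher and 2.7% lower after adjustment. They were JAG1 (0.26, adjusted p = 0.0508), NOTCH1 (0.34, adjusted p = 0.109) and HES6 (0.89, adjusted p = 0.230). JAG1 was called in this step without the 3 libraries with few genes (adjusted p = 0.0425).

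**Figure D2:**
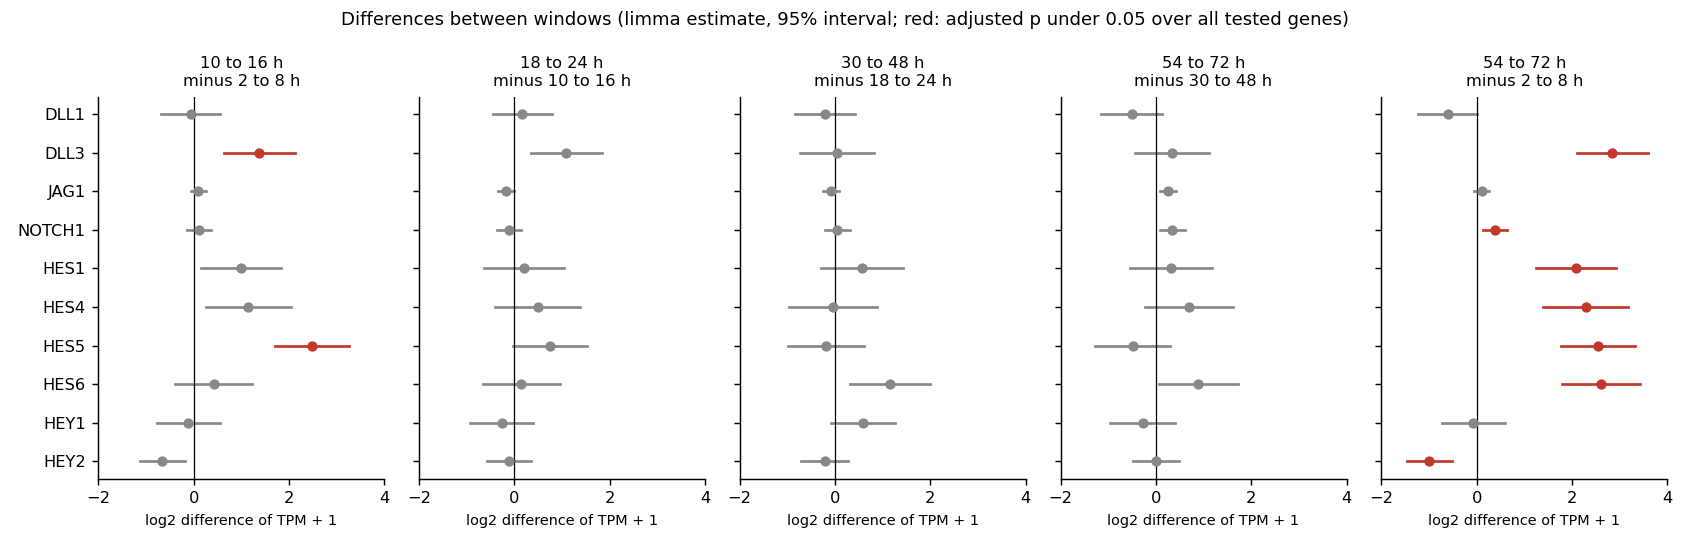
Differences in log2(TPM + 1) between windows (x axis) for the 10 genes (rows), as limma estimates with 95% intervals; red marks an adjusted p under 0.05. HES5 and DLL3 are red in the step of 10 to 16 h minus 2 to 8 h, no gene is red in the next 3 steps, and 7 genes are red for 54 to 72 h minus 2 to 8 h, with HEY2 alone on the negative side among them.

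HES1 had lower means at 30 and 54 h than at 24, 36, 48 and 60 h, and DLL1 and NOTCH1 had their lowest means of the course at 30 h. This was seen in the values, and 30 and 54 h together were then set against those 4 neighbouring times in a test chosen afterwards. DLL1 had 15.6, 23.6 and 35.4 TPM as lowest, median and highest values in the 6 libraries of 30 and 54 h, against 26.6, 39.1 and 75.2 TPM in the 11 libraries of the neighbouring times. HES1 had 6.09, 23.2 and 38.2 TPM, against 15.9, 54.4 and 73.0 TPM. In both genes the ranges overlapped, and for DLL1 the low values lay at 30 h. Its 3 libraries of 30 h (16.51, 21.29 and 15.61 TPM) were below every library of the neighbouring times. Those of 54 h had 25.90, 27.28 and 35.36 TPM, a mean of 29.5 ± 5.11 TPM that did not stand below the 30.0 ± 3.07 TPM of 60 h by more than the spread. NOTCH1 was at 18.6 ± 2.18 TPM at 30 h and 25.7 ± 2.70 TPM at 36 h, while its 28.8 ± 4.08 TPM at 54 h was within the range of the neighbouring means.

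On the log2 scale the differences of 30 and 54 h from their neighbours were −0.83 for DLL1 (limma adjusted p = 0.158), −1.25 for HES1 (0.106) and −0.39 for NOTCH1 (0.0831). None of the 10 genes was called, where 9.77% of all genes were called higher and 4.53% lower. An unadjusted p under 0.05 was found for 3 of the 10, against 25.6% of all genes. Without the 3 libraries with few genes, none of which is from these time points, the differences of DLL1 and HES1 were as large and both were called (adjusted p = 0.000149 and 0.0249). Because the times were picked from these same values, the calls and p-values of this test add nothing to the values of DLL1, HES1 and NOTCH1. The other members showed differences between −0.65 (HES4) and 0.24 (HEY1).

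Genes that respond to low oxygen moved at the same times. The summed level of 10 such genes averaged 509 ± 21.3 TPM at 30 h and 654 ± 24.7 TPM at 54 h, and over these times ran from 485 to 681 TPM, against 1310 to 2525 TPM at 24, 36, 48 and 60 h. Of these 10 genes 8 were called lower, with a median log2 difference of −1.33. At 60 h, where DLL1 was near its level of 54 h, the sum had its highest mean of the course (2236 ± 457 TPM). The sum was also low at 6 h (455 ± 25.4 TPM) and 8 h (546 ± 83.1 TPM), where DLL1 and HES1 were at 28.6 ± 4.33 and 9.29 ± 7.13 TPM (6 h) and at 24.0 ± 3.46 and 11.2 ± 1.62 TPM (8 h). Since 6 and 8 h are part of the earliest window and 54 h of the latest, this sum also differed between those windows, at 633 to 2525 TPM for 54 to 72 h against 430 to 1323 TPM for 2 to 8 h. Its part in the results for the Notch genes was not tested. With the 6, 30 and 54 h time points left out, 6 of the 7 calls for 54 to 72 h against 2 to 8 h held, and NOTCH1 was lost. The sum still differed between the windows then, with means of 1118, 728 and 546 TPM at 2, 4 and 8 h. At 60, 66 and 72 h its means were 2236, 2082 and 1623 TPM. Leaving out 6, 30 and 54 h therefore cannot separate the Notch genes from this sum.

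**Figure D3:**
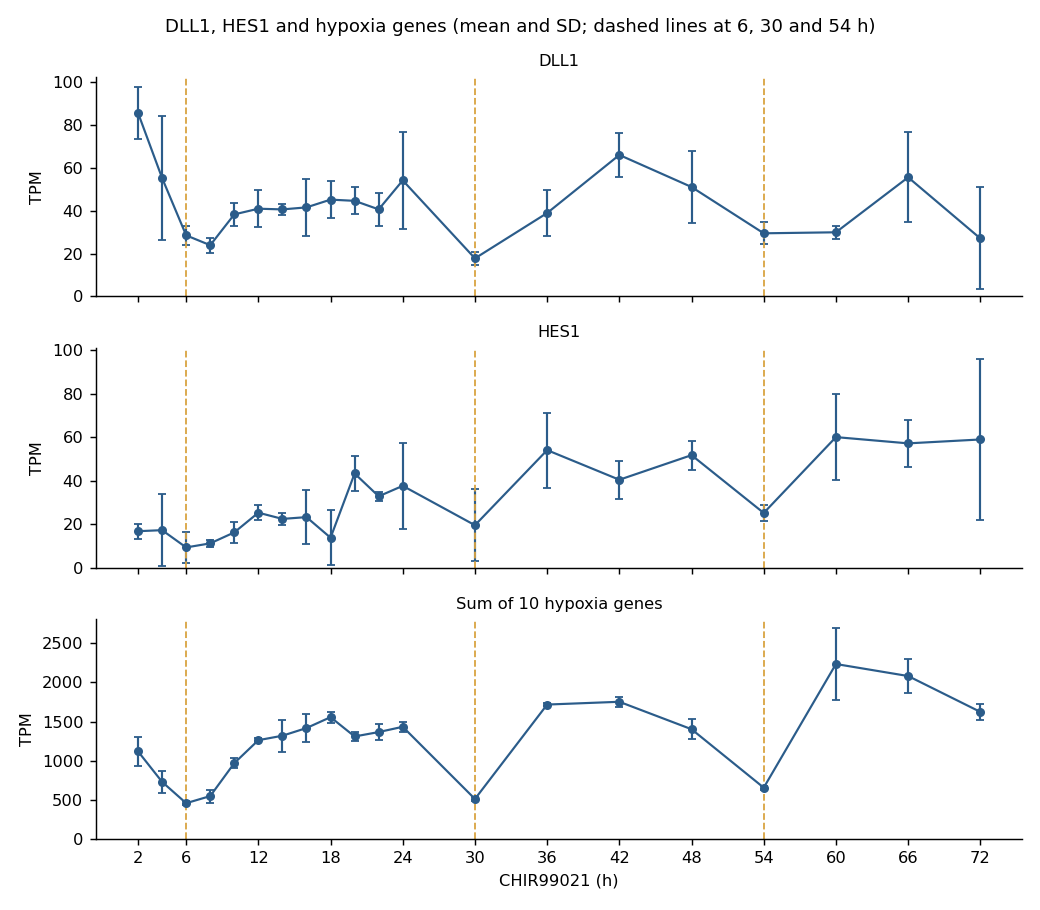
Mean TPM with SD (y axes, starting at 0) of DLL1, HES1 and the sum of 10 hypoxia genes against hours of CHIR99021 (x axis), with 3 libraries at each time but 2 at 48 h; dashed lines stand at 6, 30 and 54 h. The hypoxia sum is 455 TPM at 6 h, 509 at 30 h and 654 at 54 h, and DLL1 has its lowest mean, 17.8 TPM, at 30 h.

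How the 10 genes moved relative to each other was described by Pearson's r of log2(TPM + 1) over the 20 time-point means, which share the libraries and the same order of times, so that no test is attached. DLL3 and HES5 were alike (r = 0.830), and so were HES1 and HES4 (0.805), HES1 and HES6 (0.728) and HES4 and HES5 (0.710). DLL1 went with none of them, its highest r in size being −0.428, with HES6. HEY2 ran opposite to HES6 (−0.695), but it was at 0 in 45 of 59 libraries, so this r rests on few values.

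Ratios of pairs of these genes within a library were compared between 54 to 72 h and 2 to 8 h by a two-sided exact permutation test over 4 against 4 time-point means, where the smallest possible p is 0.0286. The log2 ratio of HES5 to HES1 was −0.92 ± 1.48 late and −1.39 ± 1.24 early (SD, n = 4 time points each), a difference of 0.47 (exact p = 0.629, adjusted over 4 ratios 0.839). The ratio of the ligands DLL1 to JAG1 was −2.76 ± 0.887 late and −2.05 ± 0.804 early (exact p = 0.314, adjusted 0.839), a difference of −0.71 that was −0.18 without the 3 libraries with few genes. HES6 to HES5 (0.13 ± 1.32 late, 0.08 ± 1.8 early, adjusted exact p = 0.971) did not pass the threshold either, and its difference of 0.06 was −0.38 without those libraries. HES5 to HES1 differed by 0.95 without them (adjusted exact p = 0.771). The ratio of HEY1 to HEY2, the last of the 4, is not given, since HEY2 was at 0 in all late libraries. In each of the 3 cases the difference over all libraries was smaller than the larger of the SDs of the 2 windows.

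The genes with the most similar course were looked up among 13128 genes that reached a mean of 5 TPM at some time point, by the same r over 20 time points. For DLL3 they were GLI2 (r = 0.927), STMN2 (0.914) and TAGLN3 (0.912). HES5 was most like NNAT (0.943), SNCG (0.893) and STMN2 (0.876), so STMN2 stood in both lists. For HES1 they were CIT (0.864), TPX2 (0.850) and CENPE (0.850), all 3 known for parts in cell division. HES4 was most like BAIAP2 (0.906), PSRC1 (0.898) and RBM24 (0.895), and HES6 most like KLHDC8A (0.904), PPP1R14C (0.901) and SCUBE2 (0.897). HEY2 was most like GATA4 (0.941), TMC4 (0.908) and OSR1 (0.896). These r rest on few values, since HEY2 was at 0 in 45 of 59 libraries. Its highest mean, 6.08 TPM at 4 h, came from 9.44, 8.80 and 0 TPM. For DLL1 (FUK, 0.851), HEY1 (STAMBP, 0.783), NOTCH1 (ARID3A, 0.775) and JAG1 (POSTN, 0.735) the closest gene was less alike.

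Of 44 other genes of the pathway, 43 were tested, and at 54 to 72 h (late) against 2 to 8 h (early) 11 rose and 5 fell, with a median log2 difference of 0.21. Over all genes tested, 14.3% rose and 15.8% fell in this comparison, and the counts of the lists that follow stand against the same shares. Among 7 other ligands and receptors, the Delta ligand DLL4 rose to 6.60 ± 4.28 TPM, against 1.26 ± 1.3 TPM early (log2 difference 1.59, limma adjusted p = 0.00535), and the receptor NOTCH2 to 79.5 ± 18.9 TPM, against 61.1 ± 9.76 TPM early (0.36, adjusted p = 0.00869). DLK1, a Delta-like protein without the domain that activates the receptor, fell to 1.77 ± 2.83 TPM, against 16.2 ± 9.82 TPM early (−2.79, adjusted p = 1.5e-07). The other 4 did not pass, NOTCH3 among them at 49.1 ± 18.4 TPM late and 42.0 ± 16.8 TPM early.

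Of 8 genes for sugar modification of the receptor and uptake of the ligand, 3 rose and none fell at an adjusted p under 0.05. They were the ubiquitin ligases NEURL1B (log2 difference 1.56) and MIB1 (0.88), which act on the ligands, and the fringe enzyme LFNG (0.35), which modifies the receptor. The rise of LFNG was not seen in its median, which was 62.9 TPM late and 71.7 TPM early. Its late values ran from 34.4 to 149 TPM, against 27.8 to 100 TPM early. The receptor cleavage list held 8 genes, of which PSEN2 (−1.69) and APH1B (−0.53), both parts of gamma-secretase, fell and 6 did not pass. PSEN2 was at 17.1 ± 10.9 TPM late and 51.2 ± 27.0 TPM early.

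Of 9 tested nuclear effectors and corepressors 4 rose. RBPJ, whose motif is shown in the promoters above, was at 97.2 ± 18.9 TPM late and 61.8 ± 14.3 TPM early (log2 difference 0.65, limma adjusted p = 1.2e-06). The acetyltransferase KAT2B (1.88), the Groucho-type corepressor TLE4 (0.93) and the RBPJ corepressor SPEN (0.50) were the other 3, while the MAML coactivators did not pass. Of 7 inhibitors and feedback genes 2 rose: NRARP, a Notch target that limits the pathway, with 70.3 ± 19.4 TPM late and 39.1 ± 18.5 TPM early (1.01, adjusted p = 6.5e-06), and ITCH (0.31). Of the 4 remaining family members 2 fell: HES3 had 9.17 ± 10.1 TPM late and 33.0 ± 28.5 TPM early (−2.09, adjusted p = 0.00458), HEYL had 3.90 ± 2.72 and 12.1 ± 7.95 TPM (−1.19, adjusted p = 0.00812), and HES2 and HES7 did not pass.

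**Figure D4:**
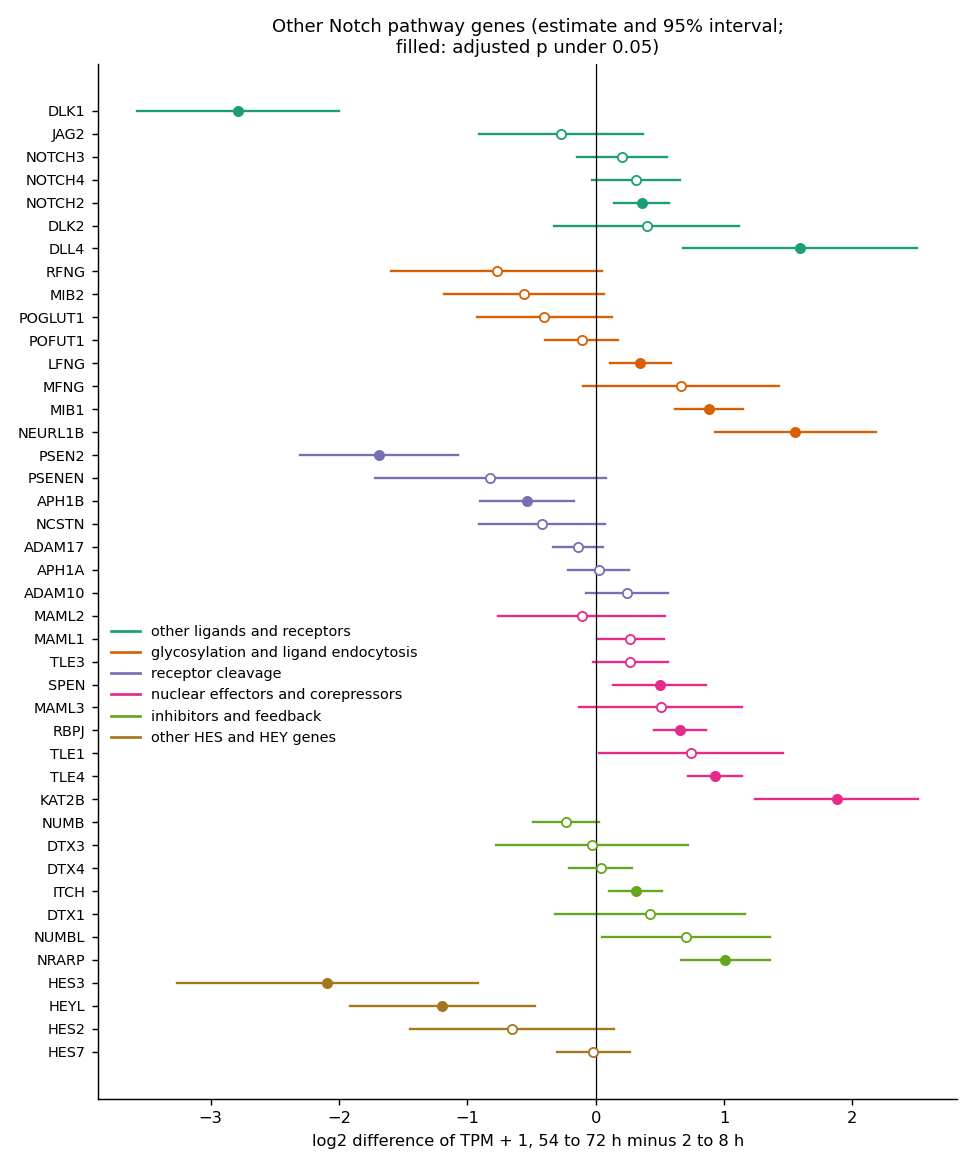
Difference in log2(TPM + 1), 54 to 72 h minus 2 to 8 h (x axis), of 42 tested pathway genes other than the 10 (rows, coloured by group), as limma estimates with 95% intervals; filled points have an adjusted p under 0.05. Filled points to the right of 0 number 11, with KAT2B, DLL4 and NEURL1B farthest out, and the 5 to the left are DLK1, HES3, PSEN2, HEYL and APH1B.

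The proneural factors, which HES proteins repress and which in turn raise Delta ligands, also rose. Of 8 listed, 6 were tested and 5 rose for 54 to 72 h against 2 to 8 h. NEUROG2 had 29.0 ± 7.80 TPM late and 3.87 ± 3.42 TPM early (log2 difference 3.03, limma adjusted p = 7.1e-12), and NEUROD4 had 12.8 ± 4.60 and 0.282 ± 0.562 TPM (3.46, adjusted p = 2e-14). INSM1 (2.85) was among the others, and NEUROG1 (0.98, adjusted p = 0.0835) did not pass. Over the 20 time points the mean of this list had an r of 0.892 with DLL3, 0.753 with HES5, 0.743 with HES1 and −0.024 with DLL1.

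Marker lists of cell types also moved between these windows. Of 10 neural progenitor markers 7 rose and 2 fell (CDH2 and PAX6), with summed levels of 2249 to 3843 TPM late and 2138 to 4269 TPM early. Of 12 neuron markers 9 rose, with sums of 301 to 634 TPM late and 206 to 377 TPM early, and all 8 epithelium markers fell, with sums of 484 to 796 TPM late and 1405 to 3801 TPM early. The epithelial marker CLDN7 was listed at 0 in all 12 late libraries, and CDH1 had a late median of 0. The r of DLL3 with the mean of the list was 0.946 for neuron, 0.897 for neural progenitor and −0.785 for epithelium markers.

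Cell types in which HEY1, HEY2, JAG1 or DLL4 are also expressed were looked at in the same way. Of 6 endothelium markers TEK and KDR rose and CDH5 fell, with sums of 4.19 to 37.1 TPM late and 11.8 to 40.0 TPM early, PECAM1 being at 2.26 ± 3.35 and 2.02 ± 4.64 TPM. Of 6 tested paraxial mesoderm markers 2 fell (MEOX1 and FOXC2), with sums of 0 to 29.6 TPM late and 0 to 75.0 TPM early, and MSGN1 and MEOX2 were at 0 in both windows. Of 4 smooth muscle markers ACTA2 rose, with sums of 284 to 567 TPM late and 115 to 559 TPM early, and of 3 tested neural crest markers FOXD3 fell, with sums of 0 to 119 TPM late and 19.8 to 59 TPM early. The part of any of these cell types in the levels of the 10 genes was not tested.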

How the data were processed

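The deposited values are TPM per gene symbol. Per the submitters' processing notes, the tools were RSEM 1.2.3, Bowtie 0.12.8 and CASAVA 1.8.2 on hg19. The annotation was not given in the sources used here. Per the labels' protocols, oligo-dT beads and 18 PCR cycles were used on an input of 100 ng, and RSEM apportions reads shared between paralogs, so that values of close relatives are uncertain. Per the series' design text, the submitters left B1 of 48 h out because an excess of its genes had no reads. TPM added up to 999997 to 1000001 per library, and no libraries held identical values. Means and SDs include libraries in which a gene is at 0. No library listed any of 8 housekeeping genes at 0. That cannot show whether a 0 of another gene, as in the 4 h B1 and 72 h A2 libraries, is a lost signal. Depth is unknown, so no detection limit was computed.

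TPM were transformed to log2(TPM + 1) and tested with limma 3.58.1 in R 4.3.3 (moderated tests with an intensity trend, Benjamini-Hochberg adjustment over all genes, threshold 0.05), for the 15305 genes with at least 1 TPM in at least 3 libraries. Change over the course was tested by F on 4 df of a natural spline. Windows are contrasts of averaged time points in a model with a mean for each of the 20 times (39 residual df), and all 59 libraries entered every fit. Groups came from the labels. Alternatives varied the pseudocount, filter, scaling, a replicate block and the spline, and left out libraries and time points. The genes, lists and tests were chosen with earlier results of these data known. The genes named are the 10, up to 4 of each list with the largest difference among those past the threshold, and a few shown because they did not pass. Some genes that entered the fits and list counts are not reported here by name. Promoter sequences are from RefSeq (GRCh38.p14). Tested on simulated data, with 100 of 15305 genes given each size of change, the fit of 54 to 72 h against 2 to 8 h found 53% at a log2 change of 1 and 94% at 2, with 11 false calls. The simulation drew independent normal noise around a constant mean per gene and shifted all late times equally. It held no libraries with few genes and no deviations shared by label, so these figures need not hold for the real libraries. Python 3.11.15 with matplotlib 3.10.9 made the figures.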

Additional observations from a re-analysis of the deposited data

How the results depend on the processing

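Each gene's results were recomputed under the alternatives, 733 values in all: 684 stayed on their side of the threshold, 31 lost a call, 18 gained one and none reversed a call, while 39 uncalled differences changed sign. For 54 to 72 h against 2 to 8 h, 4606 of all genes and 7 of the 10 were called. These became 2910 and 2 for 72 h against 2 h (HES6 held and DLL1 was gained), and 1063 and 2 for 54 h against 6 h (DLL3 and HES5 held), comparisons with 3 libraries on each side. For 72 h against 2 h without the 3 libraries under 10000 genes, added after seeing the data, they were 2437 and 6. Without the 3 libraries under 10000 genes the counts of all genes called were 1788 instead of 1143 for 10 to 16 h against 2 to 8 h, 2008 instead of 971 for 18 to 24 h against 10 to 16 h, 467 instead of 239 for 30 to 48 h against 18 to 24 h, 1334 instead of 852 for 54 to 72 h against 30 to 48 h, and 3737 instead of 2189 for 30 and 54 h against their neighbours. Of the 10 genes, 1 instead of 2 was called for 10 to 16 h against 2 to 8 h without 6, 30 and 54 h. In the step to 18 to 24 h, 1 instead of 0 was called without those 3 libraries and under quantile normalization (DLL3). In the step to 54 to 72 h it was 1 instead of 0 without them, with no filter and with a filter on 30 libraries (JAG1). For 30 and 54 h, the test chosen after seeing these values, it was 2 without them (DLL1 and HES1) and 2 under quantile normalization (DLL1 and NOTCH1). Leaving out the libraries of each replicate label in turn gave 3232 to 5317 genes over the course (5629 with all) and 5 to 7 of the 10, 2975 to 4247 for 54 to 72 h against 2 to 8 h (6 of the 10 each time), 420 to 822 for the step to 10 to 16 h (1 to 2 of the 10), 271 to 897 for that to 18 to 24 h, 86 to 146 for that to 30 to 48 h, 338 to 728 for that to 54 to 72 h, and 768 to 1829 for 30 and 54 h. The deviations of libraries with the same replicate label had correlations of −0.0731 to 0.109, 1 of 15 over 0.1, so the labels were not treated as pairs. Yet 31 of 57 libraries correlated best with their own label out of A1, A2 and B1. The data thus hint at some deviation shared by label, which the main fits did not allow for. A replicate block gave 4610 genes for 54 to 72 h against 2 to 8 h, with the same 7 of the 10, and changed no other count of the 10. DLL1 was called over the course with a 6 df spline (adjusted p = 0.0296) and without 6, 30 and 54 h (0.0468), where JAG1 was not (0.0663 and 0.0631). The causes were not tested.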
